A study of Homo sapiens with 8 samples.

Results

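The genes described here encode LSD1, the enzyme hit by the inhibitor, and the proteins that hold it in corepressor complexes. The 9 genes were taken by name from a count table of 33045 gene names: AOF2 (now KDM1A), AOF1 (now KDM1B), RCOR1, RCOR3, HDAC1, HDAC2, HMG20B, ZMYM2 and ZMYM3. All 9 had reads in all 8 libraries and passed the filter on low counts. Messenger RNA came from KASUMI-1 and THP-1, both lines of acute myeloid leukemia. KASUMI-1, a line with the RUNX1::RUNX1T1 fusion that the study calls sensitive to the inhibitor, was treated for 6 or 72 h. THP-1 is of monocytic type, carries a KMT2A fusion and is called resistant by the study, and it was treated for 24 or 72 h. At each time cells received DDP38003, an LSD1 inhibitor (LSD1i), at 0.5 µM, or vehicle, and each of the 8 combinations was 1 library. Each line is a single established cell line. The labels do not state separate cultures, and the p-values therefore cover the spread among these 8 libraries only. For the inhibitor response of each line, that spread is the change of the response between the times within a line, in an estimate shared by both lines. For the line comparisons it is the difference between those times. Effects of time and technical spread cannot be told apart in it.

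LSD1 removes mono- and dimethyl marks from lysine 4 of histone H3, using FAD as its cofactor. It works inside the CoREST complex, where the scaffold protein RCOR1 joins it to the deacetylases HDAC1 and HDAC2 and lets it act on nucleosomes. In blood cells the transcription factors GFI1 and GFI1B bring this complex to their target genes, and LSD1 inhibitors are known to detach LSD1 from GFI1. KDM1B (LSD2) is the second human FAD-dependent H3K4 demethylase and does not bind the RCOR scaffolds in the way LSD1 does. HMG20B (BRAF35) is a DNA-binding HMG-box subunit, and ZMYM2 and ZMYM3 are zinc-finger subunits of the same complexes.

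In the coordinates of NCBI build 36 used by the count table, KDM1A lies on the plus strand at chr1:23218533-23282771 and KDM1B on the plus strand at chr6:18263598-18332063. RCOR1 lies at chr14:102128986-102266665 and RCOR3 at chr1:209499526-209556200, both on the plus strand. HDAC1 lies on the plus strand at chr1:32530295-32571811 and HDAC2 on the minus strand at chr6:114364022-114399047. HMG20B lies on the plus strand at chr19:3523936-3530086, ZMYM2 on the plus strand at chr13:19430810-19561253 and ZMYM3 on the minus strand at chrX:70376199-70391721. These are protein-coding genes, counted over their exons, and no exon of another name in the table overlapped an exon of any of them.

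Promoter sequences are shown for the scaffold paralogs RCOR1 and RCOR3, whose mRNA levels stood in a different ratio in the lines, and for HMG20B and ZMYM3, whose decrease with LSD1i passed the test in KASUMI-1 (HMG20B) or in THP-1 (ZMYM3). Each is the 250 bases before the RefSeq gene start in GRCh38.p14, 5′ to 3′ on the strand of the gene, at chr14:102592399-102592648 (RCOR1, plus), chr1:211259116-211259365 (RCOR3, plus), chr19:3572694-3572943 (HMG20B, plus) and chrX:71255198-71255447 (ZMYM3, minus). Capitals mark GGGCGG on either strand, the core of the GC box that SP and KLF factors bind, with overlapping matches run together.
RCOR1: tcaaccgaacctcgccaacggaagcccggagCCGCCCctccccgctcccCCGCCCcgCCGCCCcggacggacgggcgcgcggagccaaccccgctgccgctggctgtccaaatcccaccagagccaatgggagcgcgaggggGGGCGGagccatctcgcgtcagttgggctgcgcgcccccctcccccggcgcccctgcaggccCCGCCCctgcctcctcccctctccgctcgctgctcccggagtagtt
RCOR3: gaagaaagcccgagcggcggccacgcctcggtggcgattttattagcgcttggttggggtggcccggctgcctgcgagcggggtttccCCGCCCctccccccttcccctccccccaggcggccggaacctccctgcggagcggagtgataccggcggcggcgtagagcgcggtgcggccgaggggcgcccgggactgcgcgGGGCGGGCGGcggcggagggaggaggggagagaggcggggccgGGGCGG
HMG20B: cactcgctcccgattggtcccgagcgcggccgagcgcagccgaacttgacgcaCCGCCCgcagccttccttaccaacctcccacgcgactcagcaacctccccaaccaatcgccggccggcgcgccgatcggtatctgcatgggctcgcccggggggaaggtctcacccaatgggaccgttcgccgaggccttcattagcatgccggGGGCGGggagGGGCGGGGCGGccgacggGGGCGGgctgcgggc
ZMYM3: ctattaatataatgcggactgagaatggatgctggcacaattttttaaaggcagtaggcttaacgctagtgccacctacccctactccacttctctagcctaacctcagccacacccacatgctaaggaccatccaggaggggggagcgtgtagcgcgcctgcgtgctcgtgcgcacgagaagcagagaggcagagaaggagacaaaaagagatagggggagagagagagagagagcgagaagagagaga
RCOR1 and HMG20B held 5 such boxes each, RCOR3 held 4 and ZMYM3 held 0. Of the 9 genes, 7 had at least 1 box, against 42.6% of the 35116 RefSeq promoters of the same length. That set was not limited to genes expressed in these lines, so it is not a matched background for these 9 expressed genes. GC content was 77.2% in the RCOR3 promoter and 52.8% in that of ZMYM3, against a median of 58% over all promoters, and 8 of the 9 genes lay above that median. These are letters in a window, and no measurement of binding was made in these data.

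The libraries held between 23722972 and 45970766 counted reads, with the fewest in the KASUMI-1 vehicle library of 72 h. The count of any of the 9 genes was at least 652 reads in a library. CD86, a myeloid surface gene used in AML cells as a readout of LSD1 inhibition, had 11.1 and 14.5 CPM (reads scaled to a common library size) in LSD1i libraries of KASUMI-1 against 0.682 and 0.712 CPM with vehicle, and 22.3 and 41.3 CPM in LSD1i libraries of THP-1 against 0.714 and 0.570 CPM with vehicle. Of 7 markers of KASUMI-1, the summed level was 7471 to 10673 CPM in KASUMI-1 and 109 to 130 CPM in THP-1. MPO made up 6281 to 9184 CPM of the KASUMI-1 sum, and CD33 of that list went the other way, at 46.7 to 72.7 CPM in KASUMI-1 and 78.4 to 115 CPM in THP-1. Of 9 markers of THP-1, the summed level was 102 to 505 CPM in KASUMI-1 and 934 to 11737 CPM in THP-1. LYZ made up 527 to 11083 CPM of the THP-1 sum and 29.6 to 415 CPM of the KASUMI-1 sum. MEIS1 and CD68 of that list stayed under 0.4 CPM in both lines. Of 13 matched markers of other cell types, HBB and COL1A2 were among those with no read, while EPCAM was at 127 to 166 CPM in KASUMI-1 and PECAM1 at 154 to 281 CPM in THP-1. The part of these markers in the comparisons was not tested.

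Per kilobase of exon, HDAC1 was the most abundant of the 9 genes in all 8 libraries. It ranged over 77.7 to 92.4 CPM per kb in KASUMI-1 and over 114 to 134 CPM per kb in THP-1. This order rests on the exon length counted for each gene, 2091 bases for HDAC1 and 6642 for HDAC2. In CPM without that division HDAC2 was above HDAC1 in all 8 libraries. HDAC2 was at 295 to 351 CPM in KASUMI-1 and 307 to 381 CPM in THP-1. HDAC1 was at 162 to 193 CPM in KASUMI-1 and 238 to 281 CPM in THP-1. KDM1A took place 2 in KASUMI-1 LSD1i libraries as in its vehicle libraries, at 58.3 to 84.6 CPM per kb, and place 4 in THP-1, at 30.0 to 36.1 CPM per kb. HMG20B held place 2 in THP-1, at 53.7 to 71.9 CPM per kb. HDAC2 lay between 44.4 and 57.4 CPM per kb over all 8 libraries, the narrowest of the 9 as a ratio of highest to lowest. The scaffolds RCOR1 and RCOR3, KDM1B and the zinc-finger subunits ZMYM2 and ZMYM3 were lower, at 4.03 to 19.4 CPM per kb. Neighbours in this lower set overlapped across libraries, so no order is given among them.

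**Figure D1:**
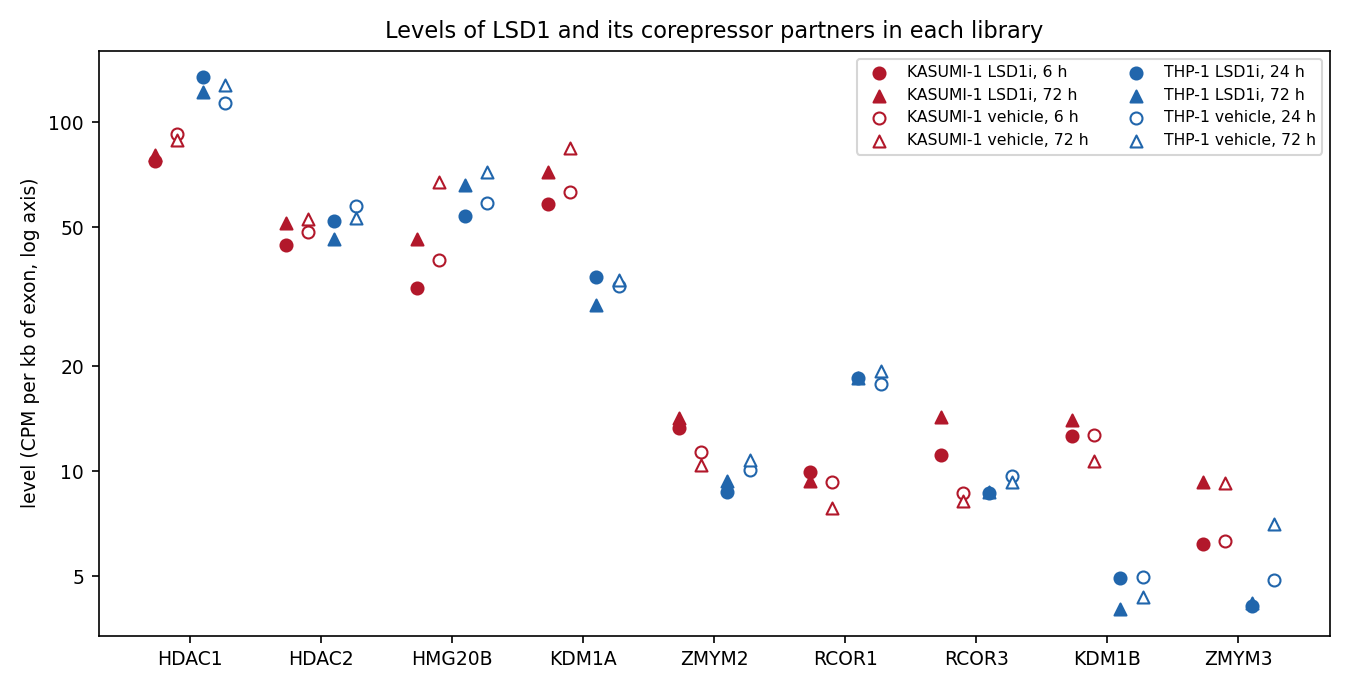
Level of each gene in each library, in CPM per kb of exon on a log axis, with KASUMI-1 in red, THP-1 in blue, LSD1i filled and vehicle open; circles are the first time and triangles 72 h, and each point is 1 library. HDAC1 is highest in all 8 libraries, and KDM1A and KDM1B sit higher in KASUMI-1 than in THP-1 while RCOR1 sits lower.

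The first comparison set the lines against each other, at first without inhibitor. In vehicle libraries KASUMI-1 held about 2.12 times as much KDM1A mRNA and 2.50 times as much KDM1B mRNA as THP-1, and 0.461 times as much RCOR1 mRNA. Of the 9 genes 4 passed the edgeR test, 2 higher and 2 lower in KASUMI-1, beside 56.7% of all 15456 genes tested, 26.5% higher and 30.2% lower. Fewer cells of a type and less RNA per cell cannot be told apart in such bulk libraries.

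KDM1A was at 196 and 263 CPM in KASUMI-1 vehicle libraries (6 and 72 h) and at 106 and 110 CPM in THP-1 vehicle libraries (24 and 72 h). The ranges do not overlap, and the fitted log2 difference was 1.08 ± 0.18 (SE; edgeR quasi-likelihood test, adjusted p = 0.000379). At the shared time of 72 h the ratio was 2.39, with a counting interval of 2.30 to 2.49. KDM1B, the second demethylase, was at 58.1 and 48.9 CPM in KASUMI-1 and 22.8 and 19.9 CPM in THP-1, a log2 difference of 1.32 ± 0.18 (edgeR, adjusted p = 8.34e-05), and at 72 h the ratio was 2.45 (2.24 to 2.68). Both demethylases were thus higher in KASUMI-1 in each vehicle library.

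RCOR1, the scaffold that joins LSD1 to the deacetylases, went the other way. It was at 51.3 and 43.4 CPM in KASUMI-1 vehicle libraries and at 98.3 and 107 CPM in THP-1 vehicle libraries, a log2 difference of -1.12 ± 0.17 (edgeR, adjusted p = 0.000187). At 72 h its ratio was 0.406 (0.378 to 0.435). RCOR3 was at 36.9 and 34.9 CPM in KASUMI-1 and at 41.2 and 39.6 CPM in THP-1 with vehicle, which did not pass the test (-0.18 ± 0.17, edgeR adjusted p = 0.397). The ratio of KDM1A to RCOR1 mRNA per kilobase was 6.76 and 10.8 in KASUMI-1 vehicle libraries and 1.90 and 1.83 in THP-1 vehicle libraries. In LSD1i libraries the same ratio was 5.85 and 7.66 in KASUMI-1 and 1.95 and 1.62 in THP-1, so it was above 5 in every KASUMI-1 library and below 2 in every THP-1 library.

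HDAC1, a deacetylase shared with NuRD and SIN3 complexes, was at 193 and 186 CPM in KASUMI-1 and 238 and 268 CPM in THP-1 with vehicle. Its log2 difference of -0.42 ± 0.16 passed narrowly (edgeR, adjusted p = 0.0430). The call was lost without any 1 of the 4 vehicle libraries, with adjusted p between 0.0683 (without KASUMI-1 6 h) and 0.247 (without THP-1 72 h), and under an offset for exon length (-0.24, adjusted p = 0.214). HDAC2, its close paralog, was at 322 and 351 CPM in KASUMI-1 and 381 and 354 CPM in THP-1, with a log2 difference of -0.13 and a 95% interval of -0.48 to 0.21. HMG20B, ZMYM2 and ZMYM3 did not pass the test in vehicle libraries, at -0.28 ± 0.23, 0.06 ± 0.16 and 0.38 ± 0.23. HMG20B passed without the KASUMI-1 library of 72 h (-0.69, adjusted p = 0.00449), and ZMYM3 passed without the KASUMI-1 library of 6 h (0.64, adjusted p = 0.00545), without the THP-1 library of 72 h (0.64, adjusted p = 0.0479) or with the length offset (0.62, adjusted p = 0.0373).

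The same comparison among LSD1i libraries called 8 of the 9 genes, all but HDAC2, 5 higher and 3 lower in KASUMI-1, beside 58.8% of 15540 genes, 27.8% higher and 31.1% lower. The share of all such calls higher in KASUMI-1 was 47.2%, and 57.4% with an offset for exon length in each library. KDM1A (0.97 ± 0.17), KDM1B (1.56 ± 0.17), RCOR3 (0.54 ± 0.17), ZMYM2 (0.60 ± 0.14) and ZMYM3 (0.89 ± 0.21) were higher in KASUMI-1. RCOR1 (-0.94 ± 0.14), HDAC1 (-0.71 ± 0.14) and HMG20B (-0.60 ± 0.19) were lower in KASUMI-1. The RCOR3 call (adjusted p = 0.0248) was lost without KASUMI-1 72 h (0.36, adjusted p = 0.122) and without either THP-1 library (0.53, adjusted p = 0.108 without 24 h and 0.0954 without 72 h), the ZMYM2 call (adjusted p = 0.00678) without THP-1 24 h (0.54, adjusted p = 0.0674). The HMG20B call (adjusted p = 0.0281) was lost without KASUMI-1 6 h (-0.36, adjusted p = 0.136), without THP-1 72 h (-0.46, adjusted p = 0.144) and with the length offset (-0.31, adjusted p = 0.178). A gene that passes among LSD1i libraries and not among vehicle libraries is not thereby shown to respond differently, and the test of that difference is given with the inhibitor responses.

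**Figure D2:**
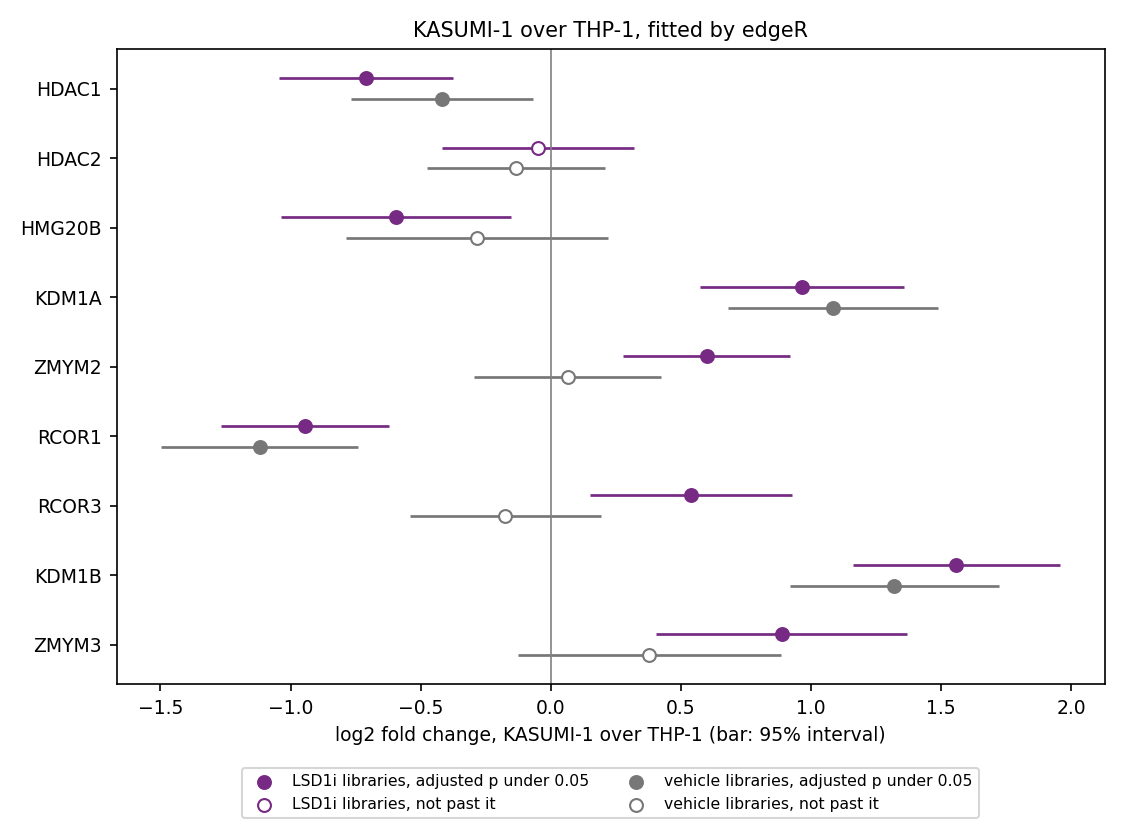
Fitted log2 fold change of KASUMI-1 over THP-1 for each gene among LSD1i libraries (purple) and vehicle libraries (grey), with 95% intervals; filled points passed an adjusted p of 0.05. KDM1A and KDM1B lie to the right of 0 and RCOR1 to the left in both sets, and HDAC2 stays near 0.

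The second comparison asked whether the inhibitor changed the mRNA of its own target and partners in KASUMI-1. RCOR3 rose 1.49-fold and HMG20B fell to 0.755 of the vehicle level, and the other 7 genes did not pass the test. That is 2 of 9 genes, beside 12.6% of 16060 genes tested, 7.26% higher and 5.37% lower. Rises made up 57.5% of all calls in this comparison in edgeR and 44.9% in DESeq2, which scales libraries differently. The median log2 response of the 9 genes was -0.01, beside 0.02 over all genes tested.

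KDM1A was at 182 and 224 CPM in the KASUMI-1 LSD1i libraries of 6 and 72 h, against 196 and 263 CPM in the vehicle libraries of the same times. Each LSD1i library lay below its own vehicle library, at 0.927 and 0.849 of it, but the vehicle libraries differed more from each other than from their partners, and 72 h was above 6 h in both arms. The fitted log2 response was -0.17 with a 95% interval of -0.43 to 0.09 (edgeR, adjusted p = 0.403). KDM1B was at 57.5 and 64.2 CPM with LSD1i against 58.1 and 48.9 CPM with vehicle, with a fitted log2 response of 0.19 and an interval of -0.10 to 0.47.

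RCOR3, the scaffold paralog of RCOR1, was at 47.2 and 60.9 CPM in KASUMI-1 LSD1i libraries and at 36.9 and 34.9 CPM in vehicle libraries. The groups do not overlap. The single-pair ratio was 1.28 at 6 h (counting interval 1.19 to 1.37) and 1.74 at 72 h (1.61 to 1.89). The fitted log2 response was 0.58 ± 0.14 (edgeR, adjusted p = 0.00993), and it no longer passed without the 72 h pair (0.35, adjusted p = 0.433) or without the pair terms (0.59, adjusted p = 0.122). RCOR1 was at 55.0 and 51.7 CPM with LSD1i against 51.3 and 43.4 CPM with vehicle, and did not pass (0.18 ± 0.12, adjusted p = 0.388).

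The balance of scaffold paralogs is given as shares of mRNA, with no test and no measure of how each paralog acts in the complex. Of the summed RCOR1, RCOR2 and RCOR3 level per kilobase, RCOR3 made up 51.9% and 58.8% in KASUMI-1 LSD1i libraries and 47.2% and 48.2% in KASUMI-1 vehicle libraries. In THP-1 it made up 30.9% and 31.4% with LSD1i and 34.0% and 31.4% with vehicle. The remaining paralog RCOR2 stayed between 0.763 and 2.66 CPM in all 8 libraries. RCOR3 exceeded RCOR1 per kilobase in both LSD1i libraries of KASUMI-1 and in its vehicle library of 72 h, and in no library of THP-1. The ratio of RCOR1 to RCOR3 per kilobase was 0.899 and 0.655 in those LSD1i libraries (6 and 72 h). In that vehicle library it was 0.957, close to equal and without a counting interval. The order depends on the exon length counted for each gene. In CPM without that division RCOR3 was above RCOR1 only in the KASUMI-1 LSD1i library of 72 h (60.9 against 51.7 CPM).

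**Figure D3:**
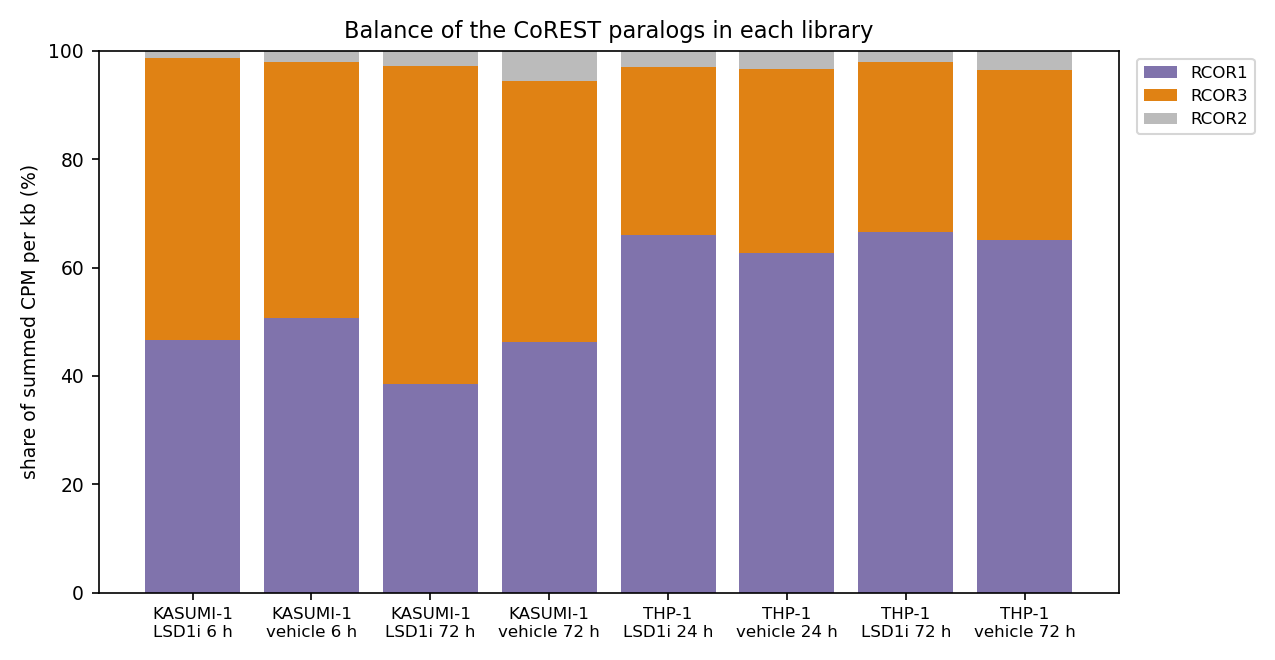
Share of the summed CPM per kb of RCOR1, RCOR3 and RCOR2 in each library, 1 bar per library, with each LSD1i library left of the vehicle library of its line and time. The RCOR3 share is 58.8% in the KASUMI-1 LSD1i library of 72 h against 48.2% with vehicle, and 30.9% to 34.0% in the THP-1 libraries.

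HMG20B was at 54.1 and 74.8 CPM in KASUMI-1 LSD1i libraries and at 65.3 and 109 CPM in vehicle libraries. The groups overlap because both arms were higher at 72 h, and within each pair the LSD1i library was lower, at 0.828 of vehicle at 6 h and 0.688 at 72 h. The fitted log2 response was -0.41 ± 0.12 (edgeR, adjusted p = 0.0348). The call was lost when the KASUMI-1 72 h pair was left out (-0.28, adjusted p = 0.517), on leaving out either THP-1 pair (adjusted p = 0.0673 for 24 h and 0.0639 for 72 h), in a fit of KASUMI-1 alone (0.0706) and without the pair terms (0.419).

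Among the zinc-finger subunits, ZMYM2 was at 107 and 114 CPM in KASUMI-1 LSD1i libraries and at 91.6 and 83.9 CPM in vehicle libraries. The groups do not overlap, yet the log2 response of 0.33 ± 0.12 missed the threshold (edgeR, adjusted p = 0.0748). ZMYM3 was at 40.0 and 60.3 CPM with LSD1i against 40.8 and 60.1 CPM with vehicle, so the pairs matched closely while both arms were higher at 72 h. The deacetylases gave -0.20 ± 0.12 for HDAC1 and -0.08 ± 0.13 for HDAC2, with 95% intervals of -0.46 to 0.06 and -0.34 to 0.18.

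Ratios in KASUMI-1 moved with exon length across the transcriptome. The median log2 ratio of LSD1i over vehicle was -0.19 in the shortest and 0.11 in the longest of 3 equal-sized length classes of genes at 6 h, and -0.14 and 0.18 at 72 h. In THP-1 the same medians were 0.03 and -0.03 at 24 h, and 0.09 and -0.08 at 72 h. HMG20B, with 1617 bases of exon, and HDAC1 (2091) lie in the shortest class, and KDM1A (3114) lies in the middle class. RCOR3 (4253), KDM1B (4574), RCOR1 (5518), ZMYM3 (6481), HDAC2 (6642) and ZMYM2 (8049) lie in the longest. With an offset for exon length in each library, the KASUMI-1 response of RCOR3 was 0.46 (adjusted p = 0.0412), that of HMG20B was -0.31 (adjusted p = 0.121) and that of ZMYM2 was 0.12 (adjusted p = 0.591). The RCOR3 call held under that offset, and the HMG20B call did not.

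**Figure D4:**
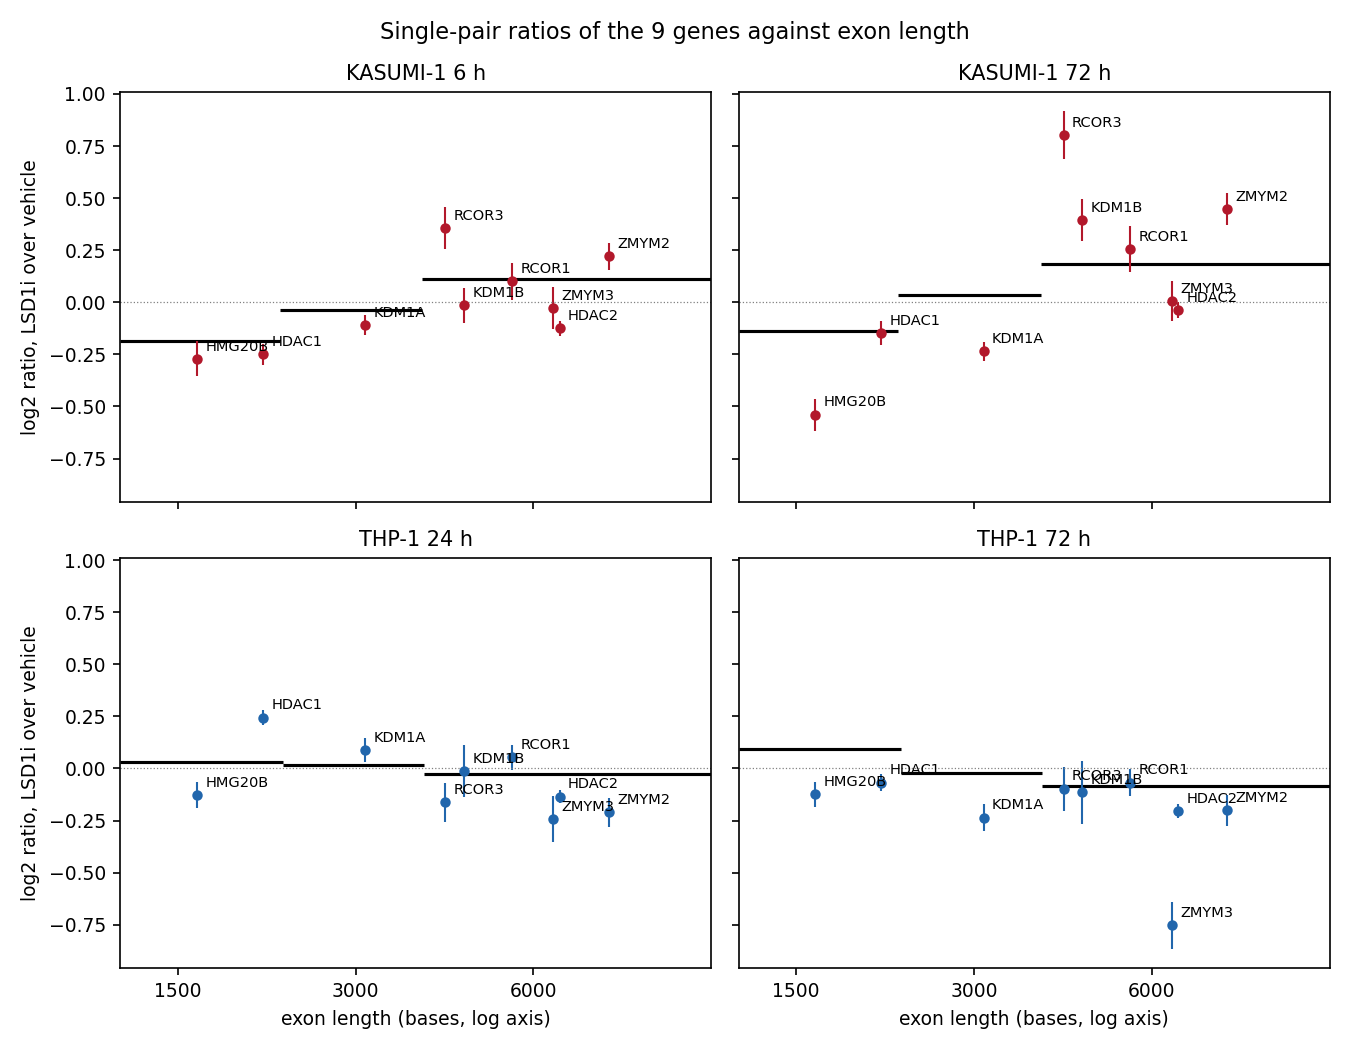
Log2 ratio of LSD1i over vehicle in each pair against exon length in bases on a log axis; points are the 9 genes with 95% counting intervals and black lines are the medians of all genes in the 3 length classes. In the KASUMI-1 72 h pair RCOR3 (0.80) lies above and HMG20B (-0.54) below the median of its length class, and ZMYM3 (-0.75) stands lowest in the THP-1 72 h pair.

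In THP-1 the same question gave 1 call. ZMYM3 fell to 0.708 of the vehicle level, and the other 8 genes did not pass, which is 1 of 9 beside 9.42% of genes called in this line, 6.49% higher and 2.93% lower. ZMYM3 was at 26.6 and 27.1 CPM in THP-1 LSD1i libraries of 24 and 72 h and at 31.5 and 45.8 CPM in vehicle libraries. The groups do not overlap, and the fitted log2 response was -0.50 ± 0.14 (edgeR, adjusted p = 0.0269). The single-pair ratio was 0.845 at 24 h (0.782 to 0.912) and 0.593 at 72 h (0.548 to 0.641). The call was lost on leaving out the 72 h pair (-0.26, adjusted p = 0.822) and with no pair terms (-0.52, adjusted p = 0.462).

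ZMYM3 differed over time in 3 of the 4 arms. Between the first time and 72 h it was 1.51 times as high in KASUMI-1 with LSD1i, 1.47 times in KASUMI-1 with vehicle and 1.45 times in THP-1 with vehicle. In THP-1 with LSD1i the ratio was 1.02, with a counting interval of 0.936 to 1.11. HMG20B was also higher at 72 h in each arm, 1.38 times with LSD1i and 1.67 times with vehicle in KASUMI-1, and 1.23 times with LSD1i and 1.22 times with vehicle in THP-1. These ratios set single libraries against each other and have no replicate check.

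KDM1A was at 112 and 93.5 CPM in THP-1 LSD1i libraries against 106 and 110 CPM in vehicle libraries, above vehicle at 24 h and below it at 72 h. Its fitted log2 response was -0.07 with an interval of -0.33 to 0.19 (edgeR, adjusted p = 0.827). RCOR1 was at 102 and 102 CPM with LSD1i against 98.3 and 107 CPM with vehicle, and HDAC1 at 281 and 256 CPM with LSD1i against 238 and 268 CPM with vehicle. Both sets overlap between agents. KDM1B, RCOR3, HDAC2, HMG20B and ZMYM2 had fitted log2 responses between -0.21 and -0.06, and the lowest adjusted p among the 8 genes other than ZMYM3 was 0.380, for ZMYM2.

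**Figure D5:**
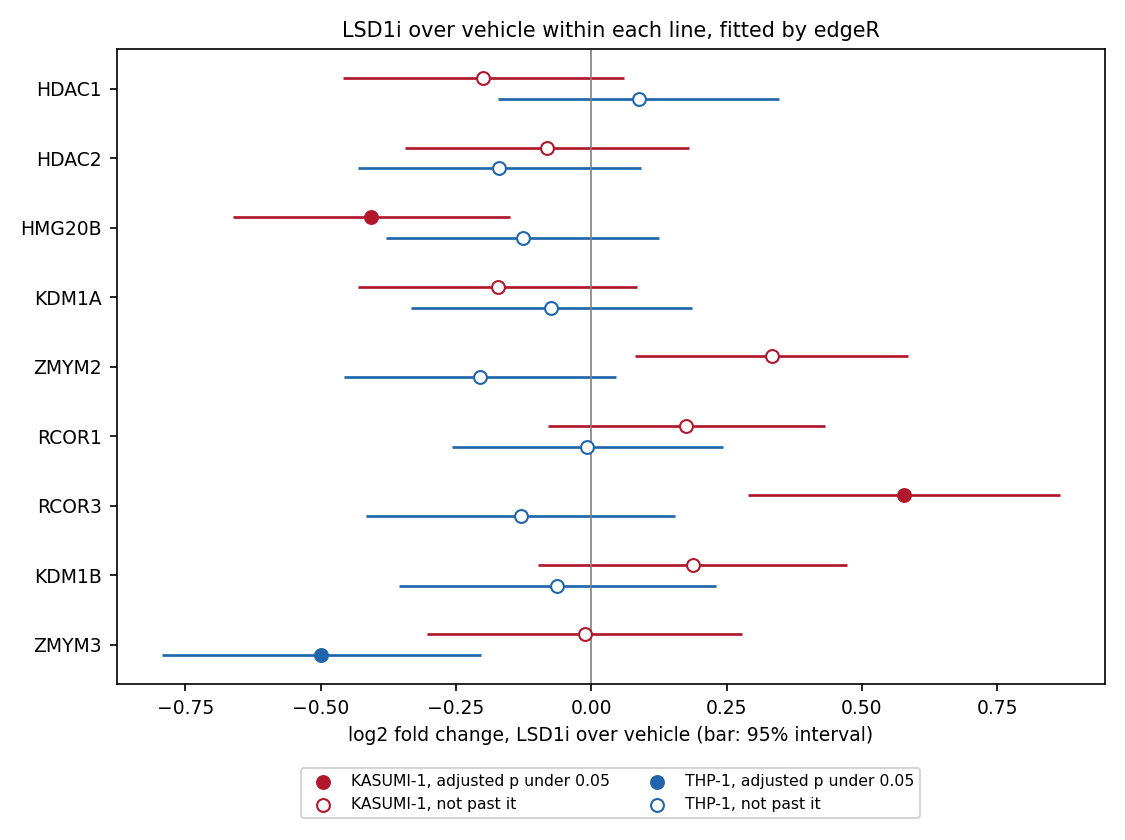
Fitted log2 fold change of LSD1i over vehicle in KASUMI-1 (red) and THP-1 (blue), with 95% intervals; filled points passed an adjusted p of 0.05. RCOR3 (0.58) and HMG20B (-0.41) passed in KASUMI-1 and ZMYM3 (-0.50) in THP-1, and KDM1A lies within 0.2 of 0 in both lines.

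The responses of the lines were then tested against each other. RCOR3 differed, with a KASUMI-1 minus THP-1 difference of 0.71 ± 0.19 on the log2 scale (edgeR, adjusted p = 0.0347), which is 1 of 9 genes beside 6.13% of all genes, 2.8% higher and 3.33% lower. The share of all such calls higher in KASUMI-1 was 45.7% in edgeR and 34.3% in DESeq2. Every KASUMI-1 pair had a ratio above 1 for RCOR3, and both THP-1 pairs had one below 1 (0.893 at 24 h and 0.935 at 72 h). This call was lost with the length offset (0.60, adjusted p = 0.0868) and without the pair terms (0.72, adjusted p = 0.276). The RCOR3 call was also lost without the pair of KASUMI-1 72 h (0.48), THP-1 24 h (0.68) or THP-1 72 h (0.74). Such fits keep 1 residual degree of freedom and 1 pair of the line concerned. A loss there does not by itself show that the call depended on that pair. ZMYM2 showed 0.54 ± 0.17 and did not pass (adjusted p = 0.0650), although it did without the KASUMI-1 6 h pair (0.66, adjusted p = 0.0257) and with no filter on low counts (0.56, adjusted p = 0.0462). The ZMYM3 and HMG20B calls, each made in a single line, were not shown to differ between lines (0.49 ± 0.20, adjusted p = 0.153, and -0.28 ± 0.17, adjusted p = 0.371). KDM1A gave -0.10, with a 95% interval of -0.46 to 0.27.

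With 1 coefficient over all 4 pairs, 0 of the 9 genes passed in edgeR, beside 4.33% of all genes, and 0 passed in DESeq2. At an unadjusted p under 0.05 the count was 1 in each tool. In edgeR that gene was HMG20B, lower in 4 of 4 pairs (-0.27 ± 0.11, unadjusted p = 0.0364, adjusted p = 0.255). In single pairs, where intervals cover counting error only, LSD1i differed from vehicle in 7 genes each at KASUMI-1 6 h, KASUMI-1 72 h, THP-1 24 h and THP-1 72 h, beside 64.0%, 71.6%, 61.1% and 67.0% of all genes. Of the 9 genes, 3, 4, 2 and 0 were higher with LSD1i in the same order, beside 27.8%, 38.6%, 33.8% and 34.3% of all genes. Those lower with LSD1i numbered 4, 3, 5 and 7. Of 10951, 11057, 11246 and 11371 genes in these pairs, 3045, 4271, 3799 and 3901 were higher and 3962, 3644, 3071 and 3717 were lower.

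Genes that work with LSD1 or against it were described through lists of known function, whose counts stand against 7.26% of all genes higher and 5.37% lower with LSD1i in KASUMI-1, and 6.49% higher and 2.93% lower in THP-1. Among 12 other CoREST subunits and associates, 2 rose and 0 fell with LSD1i in KASUMI-1, with a median of 0.11 beside 0.02 over all genes, and 0 were called in THP-1. ZNF217, a zinc-finger partner of CoREST, was at 59.4 and 61.8 CPM with LSD1i against 39.9 and 37.6 CPM with vehicle in KASUMI-1 (0.64 ± 0.12, edgeR adjusted p = 0.00216, and 0.0570 without the 72 h pair). PHF21A (BHC80), the subunit that reads unmethylated H3K4, gave 0.44 ± 0.14 in KASUMI-1, and this call was lost with DESeq2 (0.41, adjusted p = 0.0705), with the length offset (0.23, adjusted p = 0.290), on leaving out the KASUMI-1 72 h pair (0.27, adjusted p = 0.596) or either THP-1 pair (0.42, adjusted p = 0.0752 for 24 h and 0.0741 for 72 h). Between lines, ZNF217 (-1.32 ± 0.17) and GSE1 (-1.87 ± 0.18), a coiled-coil associate of the complex, were lower in KASUMI-1 vehicle libraries, with 1 of the 12 higher and 4 lower, beside 26.5% of all genes higher and 30.2% lower. Of the 4, ZMYM5 (adjusted p = 0.0778) and L3MBTL3 (0.167) lost the call with the length offset, and L3MBTL3 also without 1 library in 3 of 4 cases (0.0974 to 0.182).

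Of 15 DNA-binding factors that recruit LSD1 or CoREST, 14 were tested. In KASUMI-1 4 rose and 1 fell with LSD1i (median 0.36 beside 0.02), where 12.6% of all genes were called, and in THP-1 3 rose and 0 fell (median 0.02 beside -0.01), where 9.42% were called. GFI1, the repressor that anchors LSD1 in myeloid cells, was at 267 and 412 CPM with LSD1i against 184 and 248 CPM with vehicle in KASUMI-1 (0.63 ± 0.13). In THP-1 it was at 343 and 328 CPM with LSD1i against 218 and 250 CPM with vehicle (0.52 ± 0.13), so LSD1i libraries were above vehicle in 4 of 4 pairs. The GFI1 calls (edgeR adjusted p = 0.00316 in KASUMI-1 and 0.00935 in THP-1) were lost without KASUMI-1 72 h (adjusted p = 0.0793) and without THP-1 24 h (0.408) or 72 h (0.125). BCL11A, a repressor of fetal globin genes, rose in both lines (0.52 ± 0.15 in KASUMI-1 and 0.95 ± 0.16 in THP-1). TAL1, an erythroid and stem cell factor, fell in KASUMI-1 (-0.59 ± 0.18) and was near 0 in THP-1, at 0.0950 to 0.134 CPM. The BCL11A call in KASUMI-1 was lost with the length offset (0.31, adjusted p = 0.196), with DESeq2 (0.0622) and on leaving out either KASUMI-1 pair (0.0852 and 0.186), the THP-1 call on leaving out its 72 h pair (0.148), and the TAL1 call on leaving out any 1 of the 4 pairs (adjusted p = 0.0560 to 0.220) or with DESeq2 (0.114).

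The deacetylases also belong to NuRD and SIN3 complexes. Of 11 NuRD subunits, MBD3 alone was called in KASUMI-1 (-0.57 ± 0.16) and MBD2 alone in THP-1, at 76.9 and 69.7 CPM with LSD1i against 40.1 and 38.3 CPM with vehicle (0.90 ± 0.13, edgeR adjusted p = 3.52e-05), beside 12.6% of all genes called in KASUMI-1 and 9.42% in THP-1. MBD2 and MBD3 form mutually exclusive NuRD complexes, and MBD2 is the one that binds methylated DNA. The MBD3 call was lost on leaving out the KASUMI-1 72 h pair (-0.19, adjusted p = 0.686) or the THP-1 24 h pair (-0.59, adjusted p = 0.0503). Of 17 SIN3 and NCoR subunits and other class I deacetylases, 2 rose and 0 fell in each line: ARID4A (0.52 ± 0.13) and ARID4B (0.49 ± 0.12) in KASUMI-1, and SAP30 (0.99 ± 0.14) and BRMS1 (0.60 ± 0.12) in THP-1. The ARID4A and ARID4B calls were lost with the length offset (0.35, adjusted p = 0.0843, and 0.28, adjusted p = 0.152), and all 4 calls but that of SAP30 were lost on leaving out a pair of the same line.

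Of 18 Jumonji demethylases, the family that removes histone methylation without FAD, 2 rose and 0 fell in KASUMI-1 and 2 rose and 1 fell in THP-1, again beside 12.6% and 9.42% of all genes called. KDM7A, which removes H3K9 and H3K27 methylation, rose in both lines, at 21.6 and 38.2 CPM with LSD1i against 10.3 and 12.5 CPM with vehicle in KASUMI-1, and at 6.75 and 5.03 CPM with LSD1i against 1.85 and 0.760 CPM with vehicle in THP-1. Its log2 responses were 1.33 ± 0.18 and 2.21 ± 0.23. KDM5B, a demethylase of trimethylated H3K4, was at 45.6 and 50.6 CPM with LSD1i against 68.6 and 103 CPM with vehicle in THP-1 (-0.81 ± 0.13, edgeR adjusted p = 0.000208, and 0.127 without the 72 h pair). In vehicle libraries the H3K27 demethylase KDM6A was at 34.1 and 28.4 CPM in KASUMI-1 and at 0.189 and 0.285 CPM in THP-1. Of 17 matched H3K4 methyltransferase subunits 0 rose and 1 fell in each line, PAGR1 in KASUMI-1 (-0.53 ± 0.13) and KMT2D in THP-1 (-0.47 ± 0.14). The KMT2D call was lost with DESeq2 (adjusted p = 0.0803), with the length offset (0.108) and without either THP-1 pair (0.350 and 0.348), and the PAGR1 call without the KASUMI-1 72 h pair (0.279).

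By the root mean square difference of centred log2 CPM over the 8 libraries, among 7470 genes, the profiles most like that of KDM1A were those of NAT9 (0.0533), SMARCD2 (0.0770) and PAFAH1B3 (0.0962). Those most like HDAC1 were RNF4 (0.0375), SLC12A9 (0.0532) and ZNF622 (0.0550). These are descriptions over 8 libraries that share 2 lines.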

How the data were processed

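Messenger RNA libraries made with a TruSeq kit were deposited by the authors as 1 table of whole-number read counts per gene, not normalized. Reads were counted with featureCounts 1.5.2, per the file headers, on gene models of Ensembl release 54 (NCBI build 36). The submitters' processing notes name TopHat2 2.0.10, FastQC 0.10.0 and hg18. The recorded command sets no strand option and none for reads with several mapping places, which the counter leaves out by default, so close paralogs may be undercounted. Groups came from the labels, with 1 library each.

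Genes were tested with edgeR 4.0.16 in R 4.3.3 (quasi-likelihood, robust) with TMM scaling and filterByExpr at a minimum count of 10, fitted on the whole table and adjusted by Benjamini and Hochberg, called at 0.05. Inhibitor responses used a term per pair of line and time and an LSD1i coefficient per line (2 residual degrees of freedom). The pairing comes from the line and time in the labels, which give no replicate numbers. Line comparisons used 4 libraries of 1 agent. Spread was therefore largely borrowed across genes (median prior degrees of freedom 18.4 for the responses). CPM are scaled by TMM, and levels per kb divide by the exon length in the table. Single-pair ratios used a prior count of 2 and exact conditional binomial 95% intervals, which cover counting error only, since no molecular identifiers are recorded. Alternatives were RLE scaling, DESeq2 1.42.0, other filters, left-out pairs or libraries, no pair terms, each line alone and, chosen after seeing the data, a loess offset on exon length and non-robust dispersions. A response fit with a pair left out keeps as few as 1 residual degree of freedom. The response of the line concerned then comes from 1 pair. A line comparison with a library left out has 1 library in a line. A call lost in such fits does not by itself show that it depended on what was left out. The script was tested on simulated data.

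The genes and lists were chosen with earlier results of these data known. Named genes were all 9, up to 4 called genes per list and comparison that had an average log2 CPM from 1 upward, RCOR2, CD86, and the 3 profiles most like KDM1A and HDAC1; not all of them are printed, and some items are not reported here. Promoters are from RefSeq (GRCh38.p14), which matched all 9 genes.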

Additional observations from a re-analysis of the deposited data

Results flagged for a closer look

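By the test of the difference itself (edgeR, adjusted p under 0.05), the response to LSD1i differed between the lines for the 10 genes named here. Values are KASUMI-1 minus THP-1 on the log2 scale. Of all genes, 6.13% passed. The 10 were named under the limits on level and number set for listed genes, so their count cannot be set against that share. Among the 9 corepressor genes this was RCOR3, at 0.71, a call lost under the alternatives given with it above. GFI1B passed too but lies below the average level set for named genes. Among the listed partners the difference was 1.03 for KDM5B, 0.70 for ZNF516 and 0.69 for ARID4A, and it was -0.89 for SAP30, -0.79 for RIOX2, -0.73 for MBD2, -0.69 for BRMS1 and -0.60 for PAGR1. Each of these 8 partner calls was lost under at least 1 alternative. That of KDM5B was lost without the THP-1 72 h pair (adjusted p = 0.107), and those of MBD2 (0.131 to 0.192) and RIOX2 (0.123 to 0.153) without either THP-1 pair. SAP30 lost it with the length offset (0.0732) and without either THP-1 pair (0.0857 and 0.128), and PAGR1 without the KASUMI-1 72 h pair or either THP-1 pair (0.228 to 0.280). ARID4A (0.121 to 0.189) and BRMS1 (0.108 to 0.257) lost it with the length offset and without the same 3 pairs, and ZNF516 with DESeq2 (0.0501), the length offset (0.161) and without KASUMI-1 6 h or either THP-1 pair (0.0963 to 0.239). CD86, which rose in both lines, differed by -1.39, with a log2 response of 4.16 ± 0.26 in KASUMI-1 and 5.55 ± 0.25 in THP-1. That difference (adjusted p = 0.0459) was lost with the filter at 50 reads (0.0584), non-robust dispersions (0.0501), the length offset (0.0719) or no pair terms (0.321), and without the pair of KASUMI-1 6 h (0.0968) or THP-1 72 h (-0.80, 0.431). The first times of the lines, 6 h in KASUMI-1 and 24 h in THP-1, differ, so line and time cannot be told apart in this difference.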

How the results depend on the processing

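Each line and agent had 2 libraries at different times. The response fits share an estimate of the spread over the pairs of both lines, with 2 residual degrees of freedom. Leaving out a pair of 1 line therefore also changes the tests in the other. Of the 9 genes, KASUMI-1 gave 2 calls, 1 with the length offset, 1 in a fit of that line alone, 0 with no replicate block and 0 to 2 with a pair left out. THP-1 gave 1 call, 0 with no replicate block and 0 to 1 with a pair left out. The difference gave 1, 2 with no filter, 0 with the length offset, 0 with no replicate block and 0 to 2 with a pair left out. Line comparisons gave 4 calls among vehicle libraries (3 to 4 under the alternatives) and 8 among LSD1i libraries (6 to 8), not always the same genes. Over all genes, calls in KASUMI-1 were 2029, and 1329 with the length offset, 1005 alone, 100 with no replicate block, 310 without its 72 h pair, and 1255 and 1345 without THP-1 24 h or 72 h. THP-1 had 1513, and 990 with DESeq2, 470 with no block, 611 without its 24 h pair and 379 without its 72 h pair. The difference had 984, and 532 with the length offset, 25 with no block, 1779 without KASUMI-1 6 h, and 175 and 144 without THP-1 24 h or 72 h. All pairs together had 696, and 1382 with no filter, 407 with no block, and 379 and 212 without THP-1 24 h or 72 h.

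Signs changed for log2 values that were not called in the main fit, and the cause was not tested. In the main fit these included -0.28 for HMG20B in vehicle libraries and 0.19 for KDM1B in KASUMI-1. With a pair left out, KASUMI-1 responses ranged from -0.020 to 0.40 for KDM1B and from -0.033 to 0.011 for ZMYM3 (0.0043 with no filter). THP-1 responses ranged from -0.26 to 0.074 for KDM1A, from -0.091 to 0.040 for RCOR1 (0.0043 with the length offset, 0.0020 in that line alone) and from -0.090 to 0.23 for HDAC1. The KDM1A difference ranged from -0.26 to 0.074, and the length offset gave -0.13 for HDAC2. Over all pairs, KDM1B ranged from -0.046 to 0.11 (-0.0073 with the offset), ZMYM2 from -0.063 to 0.14 (-0.023 with the offset) and HDAC1 from -0.17 to 0.012. In vehicle libraries the offset gave 0.069 for RCOR3 and 0.10 for HDAC2, and HMG20B ranged from -0.69 to 0.045 with a library left out. In LSD1i libraries HDAC2 ranged from -0.15 to 0.069. Plain library size put the median log2 ratio of all genes at 0.075 (TMM -0.035) for KASUMI-1 6 h and at -0.13 (TMM -0.00078) for THP-1 72 h, and gave 0.00037 for KDM1A in KASUMI-1 at 6 h.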
